A study of Homo sapiens with 12 samples.

Results

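The aryl hydrocarbon receptor group described here holds 7 genes of the 60715 in the deposited table: the receptor gene AHR, its DNA-binding partner ARNT, the repressors AHRR and TIPARP, and the cytochrome P450 target genes CYP1A1, CYP1A2 and CYP1B1. They were taken by gene symbol, and the group was chosen by its expression values in these same libraries, so the members' values are given as a description. RNA was sequenced from 4 established human lines of lung adenocarcinoma: HCC4006, NCI-H2228, LC-2/ad and NCI-H2009. Each line was measured in 3 states: ordinary attached culture with no treatment, and 1 day or 7 days after trypsin-treated cells were placed on plates with an ultra-low attachment surface, which keeps cells from adhering. The medium throughout was RPMI-1640, to which fetal bovine serum, penicillin and streptomycin had been added. There was 1 library for each line and state, 12 in all, so a value within a line has no replicate, and the 4 lines serve as the replicates of a state. Each line descends from 1 tumour, and the labels give no time in culture for the attached cells. Loss of attachment, trypsin treatment, replating and time on the plate therefore cannot be told apart.

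The receptor is a transcription factor held in the cytoplasm by a chaperone complex until it binds a small aromatic ligand, such as a dioxin, a polycyclic hydrocarbon of smoke, or a product of tryptophan breakdown. It then enters the nucleus, pairs with ARNT and binds short DNA elements with the core GCGTG. CYP1A1 and CYP1B1 oxidise the same kinds of ligand and are widely used as readouts of receptor activity in airway epithelium. AHRR competes with the receptor for ARNT, and TIPARP, an ADP-ribosyltransferase, acts on the receptor itself, so that both are known as negative feedback genes.

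Promoters of 6 of the 7 members were matched in RefSeq (build GRCh38.p14), and those of 3 target genes are shown: the neighbours CYP1A1 and CYP1A2, which had the same order of states in LC-2/ad, and AHRR. Each run is the 250 bases before the RefSeq start, read 5′ to 3′ on the strand of the gene, with every GCGTG core, on either strand, in capitals.
CYP1A1, chr15:74725529-74725778, minus strand: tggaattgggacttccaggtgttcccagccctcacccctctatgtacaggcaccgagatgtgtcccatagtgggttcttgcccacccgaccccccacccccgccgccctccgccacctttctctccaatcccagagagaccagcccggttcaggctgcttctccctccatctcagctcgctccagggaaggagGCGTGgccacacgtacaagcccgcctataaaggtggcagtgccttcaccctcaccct
CYP1A2, chr15:74748595-74748844, plus strand: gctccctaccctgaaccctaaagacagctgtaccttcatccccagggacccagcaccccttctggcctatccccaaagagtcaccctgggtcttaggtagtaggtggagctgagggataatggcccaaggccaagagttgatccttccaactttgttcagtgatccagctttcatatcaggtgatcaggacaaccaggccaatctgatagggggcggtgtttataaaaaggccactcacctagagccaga
AHRR, chr5:321464-321713, plus strand: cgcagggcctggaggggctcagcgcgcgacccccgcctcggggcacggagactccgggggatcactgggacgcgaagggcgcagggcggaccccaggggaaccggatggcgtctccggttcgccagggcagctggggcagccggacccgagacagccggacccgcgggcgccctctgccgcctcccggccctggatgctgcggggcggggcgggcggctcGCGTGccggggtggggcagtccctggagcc
RefSeq lists a second AHRR promoter, not printed, which held 2 cores, beginning 247 and 42 bases before its start, and no longer form of the motif. The CYP1A1 run held 1 core, beginning 57 bases before the start, and the AHRR run shown held 1, beginning 30 bases before it. The CYP1A2 run held none. Bases further upstream were not searched. Of the members not printed, ARNT held no core and AHR held 1, at base 38 after the start. RefSeq lists 3 TIPARP promoters, of which the first held 2 cores and the others none. CYP1B1 had no matched promoter. In the AHRR run shown the core was part of the longer form TNGCGTG, where N is any base. Searched on both strands in the 250 bases before the start, GCGTG was found in 32.2% of 35116 RefSeq promoters and TNGCGTG in 4.5%. In windows that also take in the 50 bases after the start, the shares were 36.5% and 5.5%. Every TNGCGTG match is also a GCGTG match. A match is a string of letters and does not show binding.

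CYP1A1 and CYP1B1 were each expressed over a wide range, and HCC4006 and NCI-H2228 held them in opposite proportions. CYP1A1 was highest in LC-2/ad after 7 days without attachment and was almost absent from NCI-H2228, the line with the most AHR transcript. CYP1B1 was high in NCI-H2228 and close to absent from HCC4006. Levels are in TPM, a relative abundance corrected for transcript length, which allows different genes to be compared within a library.

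In LC-2/ad, CYP1A1 stood at 15.5 TPM in attached cells, 71.5 TPM at day 1 and 840 TPM at day 7. The day 7 level was 54.2 times the attached level. Of 16885 genes with at least 10 counts in that pair of libraries, 11 had a larger log2 difference. In NCI-H2009, CYP1A1 was 5.47 TPM in attached cells, 8.35 TPM at day 1 and 93.1 TPM at day 7, a log2 CPM difference of 3.79 from the attached level. In both lines the day 7 value was the highest and the attached value the lowest. HCC4006 was highest at day 1 and lowest at day 7, with 89.1 TPM in attached cells, 135 TPM at day 1 and 40.9 TPM at day 7. NCI-H2228 had 0.213, 0 and 0.026 TPM, resting on 15, 0 and 1 estimated counts, where 3 counts is taken as the limit that a count of 0 allows. The order of the lines in attached cells, HCC4006, LC-2/ad, NCI-H2009 and then NCI-H2228, was also that of day 1, while at day 7 LC-2/ad and NCI-H2009 both stood above HCC4006. Over the 3 states, the ranges of LC-2/ad, NCI-H2009 and HCC4006 overlapped one another, and that of NCI-H2228 lay below all of them.

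CYP1A2, the neighbour of CYP1A1 that is best known as a liver enzyme, was measurable mainly in LC-2/ad. There it stood at 0.114 TPM in attached cells, 0.711 TPM at day 1 and 1.47 TPM at day 7, from 11, 60 and 128 estimated counts. In the other lines it did not exceed 0.094 TPM, or 8 counts, in any library. It therefore had the same order of states as CYP1A1 in LC-2/ad at a far lower level, and it did not pass the filter on low counts. The 2 genes lie 23308 bases apart on chromosome 15, facing away from each other, and their GENCODE transcripts share no exact run longer than 40 bases.

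CYP1B1, which oxidises hydrocarbons and oestradiol and is expressed mainly outside the liver, had its largest spread in NCI-H2009. That line had 12.5 TPM in attached cells, 4.18 TPM at day 1 and 240 TPM at day 7, so that the day 7 level was 57.4 times that of day 1 in TPM, and 5.07 higher in log2 CPM. LC-2/ad had 60.9, 109 and 166 TPM in the same order of states. NCI-H2228 was high throughout, at 143, 273 and 239 TPM. HCC4006 was low throughout, at 1.36, 1.01 and 0.406 TPM, from 54, 98 and 30 estimated counts. The ranges of NCI-H2228, LC-2/ad and NCI-H2009 overlapped, and HCC4006 lay below all 3. An antisense transcript, CYP1B1-AS1, shares 36456 bases of the CYP1B1 locus and reached 9.65 TPM. The sources used here do not say whether strand was used in counting, and reads of such pairs may not be separated.

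**Figure D1:**
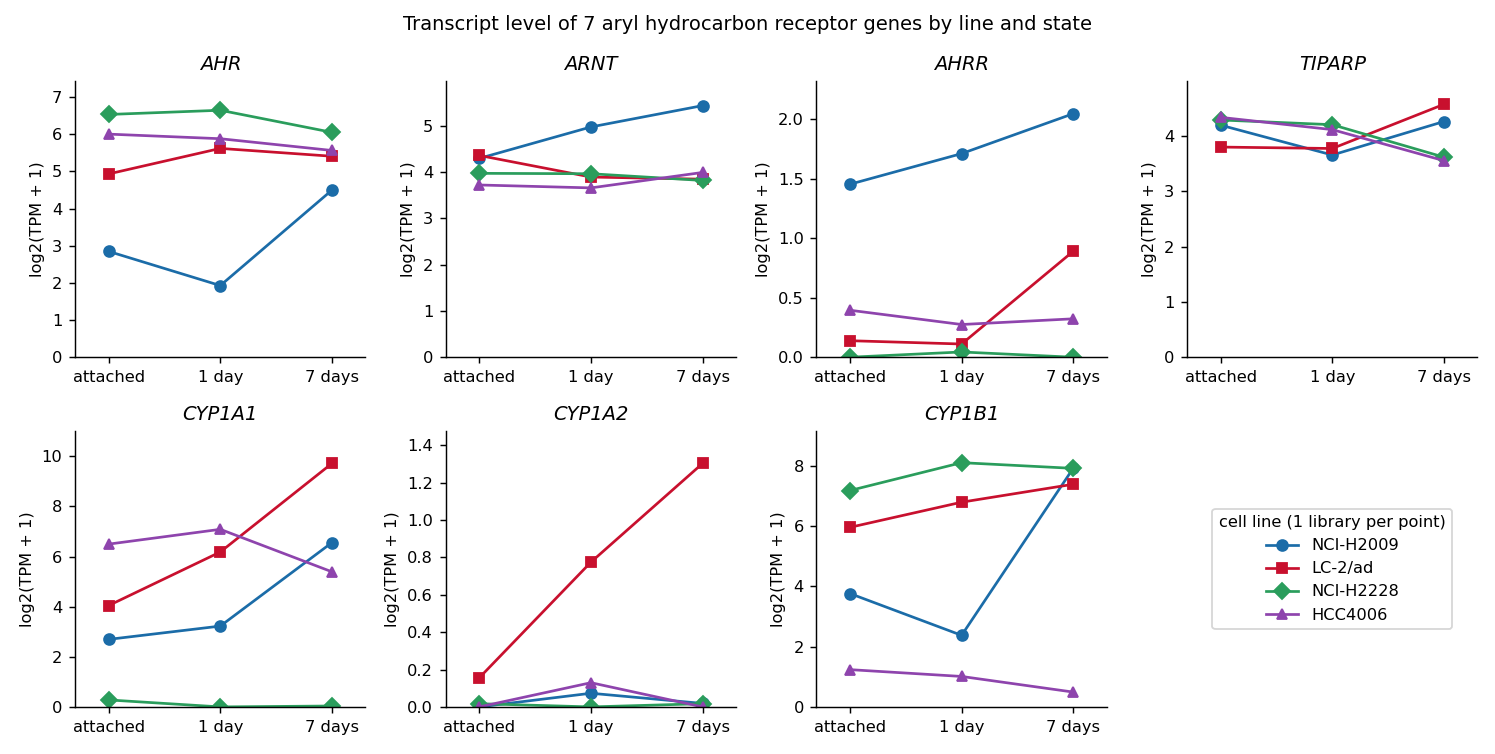
Level of each of the 7 genes, as log2(TPM + 1) on the vertical axis of its own panel, in attached cells and after 1 day and 7 days without attachment. Each point is 1 library and each coloured line 1 cell line, with no error bar because no line had a replicate. CYP1A1 in LC-2/ad goes from 15.5 to 840 TPM, and CYP1B1 in NCI-H2009 from 4.18 TPM at day 1 to 240 TPM at day 7.

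The balance of the 2 enzymes set HCC4006 and NCI-H2228 apart, while that of NCI-H2009 lay within the range of LC-2/ad. HCC4006 had 65.8, 133 and 101 times as much CYP1A1 as CYP1B1 in attached, day 1 and day 7 cells. NCI-H2228 had CYP1B1 with next to no CYP1A1. In LC-2/ad the ratio of CYP1A1 to CYP1B1 was 0.254 in attached cells, 0.654 at day 1 and 5.07 at day 7. In NCI-H2009 it was 0.437, 2.0 and 0.388. Between day 1 and day 7 in that line, CYP1A1 went from 8.35 to 93.1 TPM and CYP1B1 from 4.18 to 240 TPM. Over the 12 libraries, Pearson's r between CYP1A1 and CYP1B1 was -0.30, and it was 0.70 once the mean of each line was subtracted. These are descriptions across libraries that share their cell lines.

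**Figure D2:**
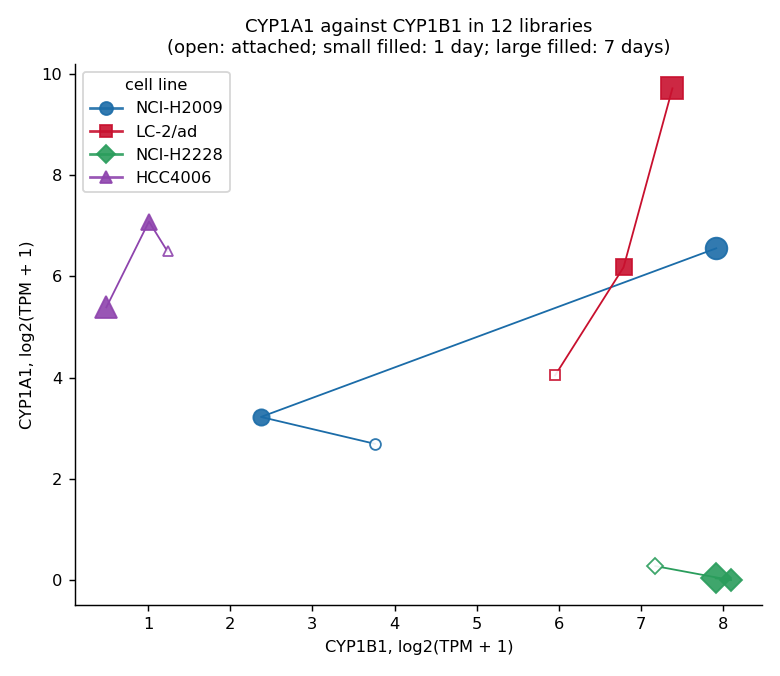
CYP1A1 (vertical) against CYP1B1 (horizontal), both as log2(TPM + 1), in the 12 libraries, with lines joining the states of a cell line in time order. Open points are attached cells, small filled points day 1 and large filled points day 7. HCC4006 stays at the left, with at most 1.36 TPM of CYP1B1, and NCI-H2228 at the bottom, with at most 0.213 TPM of CYP1A1.

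In TPM, AHR itself varied by at most 1.63 times between the states within LC-2/ad, NCI-H2228 and HCC4006, and by 7.70 times within NCI-H2009. The extremes in NCI-H2009, day 7 and day 1, differed by 1.97 in log2 CPM. The median of well-covered genes in that pair differed by 0.61 in log2 TPM. NCI-H2228 had 91.7 TPM in attached cells, 99.3 TPM at day 1 and 65.4 TPM at day 7. HCC4006 had 63.3, 58.0 and 46.4 TPM, and LC-2/ad had 29.6, 48.2 and 41.5 TPM. NCI-H2009 was lowest in every state, with 6.21, 2.81 and 21.6 TPM. The order NCI-H2228, HCC4006, LC-2/ad, NCI-H2009 was the same in all 3 states, although the ranges of HCC4006 and LC-2/ad over the states overlapped. The line order for AHR was thus not that for CYP1A1: NCI-H2228 was first for the receptor and last for the enzyme. In NCI-H2009, AHR and CYP1B1 shared the order of states, lowest at day 1 and highest at day 7. After subtraction of line means, r between AHR and CYP1B1 over the 12 libraries was 0.93, against 0.27 before it. The value of 0.93 rests largely on NCI-H2009, where AHR spanned 7.70 times and CYP1B1 57.4 times in TPM. It was computed from TPM, so the difference of 0.61 between those libraries enters it. In NCI-H2228, AHR was lowest at day 7 and CYP1B1 was lowest in attached cells. The antisense transcript AC073332.1, which overlaps AHR, had between 2.28 and 15.1 TPM.

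ARNT, the partner that the receptor shares with the hypoxia factors, was even between lines in attached cells. It stood at 18.7 TPM in NCI-H2009, 19.6 TPM in LC-2/ad, 14.7 TPM in NCI-H2228 and 12.2 TPM in HCC4006. NCI-H2009 then had 30.6 TPM at day 1 and 42.5 TPM at day 7, above every other library, while the other lines lay between 11.7 and 15.0 TPM at those times. On the count scale the day 7 and day 1 libraries of NCI-H2009 differed little, by -0.05 log2 CPM, against 0.47 on the TPM scale. CPM is the count relative to the library total, here with the TMM scaling of edgeR and a prior count of 2. The median of 13949 well-covered genes in that pair differed by 0.61 on the TPM scale, so TPM values of NCI-H2009 at day 7 and day 1 are read with that difference in view.

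AHRR was low in all libraries. NCI-H2009 had the most, at 1.74, 2.28 and 3.14 TPM, from 14, 80.2 and 96.0 estimated counts. LC-2/ad had 0.101 and 0.080 TPM in attached and day 1 cells and 0.855 TPM at day 7, from 7, 4.58 and 15.4 counts. HCC4006 lay between 0.210 and 0.315 TPM, and NCI-H2228 did not exceed 0.031 TPM. In TPM, NCI-H2009 thus lay above the other 3 lines in every state. In attached cells its 14 counts had a 95% Poisson range of 7.65 to 23.5. That overlapped the range of 3.45 to 15.8 around the 8.31 counts of HCC4006. From attached cells to day 1, NCI-H2009 differed by 2.29 in log2 CPM, while its TPM went only from 1.74 to 2.28. The read-through gene PDCD6-AHRR covers most of the same locus on the same strand and reached 2.83 TPM. Another gene on that strand, AC010442.3, shares 113352 bases with AHRR and reached 1.18 TPM. The split of reads between AHRR and these genes is therefore uncertain.

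TIPARP was the most even of the 7 genes, with all 12 libraries between 10.7 and 22.8 TPM. LC-2/ad had 12.9 TPM in attached cells, 12.7 TPM at day 1 and 22.8 TPM at day 7. NCI-H2228 had 18.5, 17.4 and 11.3 TPM, and HCC4006 had 19.2, 16.3 and 10.7 TPM. NCI-H2009 had 17.3, 11.6 and 18.2 TPM. The day 7 TPM was therefore the highest of its line in LC-2/ad and NCI-H2009 and the lowest in NCI-H2228 and HCC4006. On the count scale NCI-H2009 was lower at day 7, by -0.38 log2 CPM against attached cells and -0.04 against day 1. The TPM ranges of all 4 lines overlapped.

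Across the 4 lines, 6 of the 7 genes passed the filter on low counts and none passed the test in any comparison. The test was edgeR's quasi-likelihood test with cell line as a block, adjusted by the Benjamini-Hochberg method over 17395 genes, at a threshold of 0.05. At day 1 against attached cells, 0 of 6 members were called, beside 0.489% of all genes tested. At day 7 against attached cells it was 0 of 6 beside 0.103%, and at day 7 against day 1 it was 0 of 6 beside 0%. With an unadjusted p under 0.05 as the rule, edgeR also called 0 of the 6 in each comparison, beside 19.6% of all genes tested at day 1, 15.7% at day 7 and 9.78% between the times. DESeq2 gave AHRR no adjusted p at day 1 and day 7. It called 0 of the other 5 members at those times and 0 of 6 between them, beside 11.4%, 7.56% and 1.18% of the genes to which it gave an adjusted p. Nothing is read from these counts beyond the counts themselves, since the members were chosen on these libraries.

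The fitted log2 difference of CYP1A1 at day 7 against attached cells was 2.64 ± 1.31 (SE, n = 4 lines), and the single lines gave 5.65 for LC-2/ad, 3.79 for NCI-H2009, -1.001 for HCC4006 and -2.50 for NCI-H2228. For CYP1B1 the fit gave 1.80 ± 0.88 (SE, n = 4 lines), and the single lines gave 1.33, 3.97, -0.57 and 0.75 in the same order. Each SE given here comes from the F statistic of the fit to all 12 libraries. It is not an SE of the 4 line values, and the fitted estimates are not the means of those values. DESeq2 gave 1.48 for CYP1A1 and 1.75 for CYP1B1. The estimates rest on single lines: without LC-2/ad the CYP1A1 estimate was 0.93, and without NCI-H2009 the CYP1B1 estimate was 0.69. At day 1 the estimates were 0.53 ± 1.12 for CYP1A1 and 0.86 ± 0.80 for CYP1B1 (SE, n = 4 lines). The day 1 sign of CYP1A1 was negative with DESeq2, at -0.59. The day 7 estimates of AHR, ARNT and TIPARP were 0.20 ± 0.37, 0.16 ± 0.24 and -0.30 ± 0.22 (SE, n = 4 lines). AHRR had 1.37 ± 0.82 at day 1 and 1.49 ± 0.79 at day 7 (SE, n = 4 lines), from few counts, and limma on log2(TPM + 0.1) gave 0.04 and 0.71.

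In log2 CPM, no member had the same sign in all 4 lines in any comparison. In TPM, TIPARP was lower at day 1 than in attached cells in all 4 lines. LC-2/ad was the line that differed by scale, at -0.03 in log2 TPM and 0.05 in log2 CPM. The count in log2 CPM was 0 of 6 at day 1, where 33.4% of all genes tested had the same sign in the 4 lines. It was 0 of 6 at day 7, beside 28.0%, and 0 of 6 between the times, beside 18.0%. For AHRR at day 7 this count says little, since NCI-H2228 had 0 counts in both states and so no direction, while the other 3 lines were above 0 in log2 CPM. The median log2 difference of the 6 was 0.42 at day 1, 0.85 at day 7 and 0.15 between the times. Over all genes tested it was 0.01, 0.03 and 0.02. The members were chosen on these libraries, so the medians are a description and no shift of the group is read from them.

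**Figure D3:**
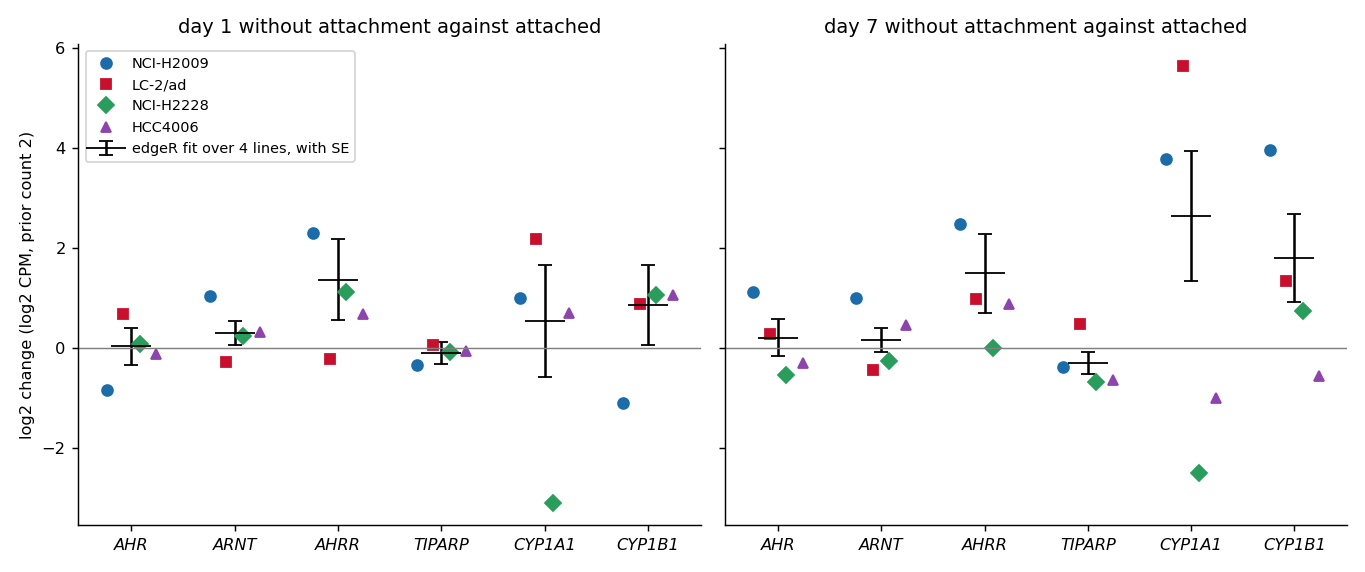
Log2 difference from attached cells at day 1 (left) and day 7 (right) for the 6 tested genes. Coloured points are the 4 cell lines (log2 CPM with a prior count of 2, 1 library per state), and black bars are the edgeR estimate over the lines with its SE. At day 7 the CYP1A1 points reach from -2.50 to 5.65, the widest spread drawn.

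The other genes of the pathway were followed as a list of 48 in 8 roles, of which 43 could be tested, and edgeR called 0 of the 43 in each comparison. At an unadjusted p under 0.05 it counted 8 at day 1, 9 at day 7 and 4 between the times, to be read beside the 19.6%, 15.7% and 9.78% of all genes tested. The list's median log2 difference was -0.01 at day 1 and 0.07 at day 7, close to that of all genes. UGT1A1, SERPINB2 and TPH1 stayed under 1 TPM in all 12 libraries, and GSTA1 and DDC also missed the filter.

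Electron donors and heme supply held the gene with the smallest adjusted p in the list. POR, the reductase that passes electrons to all microsomal P450 enzymes, was higher than in attached cells in all 4 lines at both times, though it did not pass the edgeR test (day 7 estimate 0.70 ± 0.17, adjusted p = 0.134). Its level in NCI-H2009 was 116 TPM in attached cells, 173 TPM at day 1 and 320 TPM at day 7. In LC-2/ad it was 137, 187 and 232 TPM. NCI-H2228 had 54.5, 71.4 and 82.5 TPM, and HCC4006, with the smallest difference, had 57.2, 67.1 and 69.5 TPM. DESeq2 called POR at both times, where it called 11.4% (day 1) and 7.56% (day 7) of the genes to which it gave an adjusted p. ALAS1, the first enzyme of heme synthesis, had a day 1 estimate of 0.53, as did CYB5A, which encodes cytochrome b5. CYB5A differed by -0.60 between day 7 and day 1.

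Among the phase I and II enzymes, 0 of 5 tested genes passed and their median at day 7 was -0.27. UGT1A6, which conjugates phenols, was lower without attachment in all 4 lines, with an edgeR estimate of -3.56 ± 1.05 at day 7 (adjusted p = 0.167). LC-2/ad had 17.1, 14.6 and 5.33 TPM and NCI-H2228 had 8.98, 4.77 and 1.84 TPM. HCC4006 had 60 counts in attached cells and NCI-H2009 had 11, and both were listed at 0 at day 1 and day 7, so the size of the estimate depends on how zero counts are handled. UGT1A6 shares its last exons with the other UGT1A genes, so its counts are uncertain. It is a reported receptor target, and in LC-2/ad its order of states was the reverse of that of CYP1A1. ALDH3A1, an aldehyde dehydrogenase, had a day 7 estimate of 1.14 and CYP2S1, a P450 of epithelia, of 1.75.

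Of the chaperone complex, 0 of 4 genes passed. PTGES3, the p23 cochaperone, had a day 7 estimate of -0.57, and HSP90AB1, an HSP90 chaperone, had -0.43. Among the 5 genes whose products bind ARNT or take its place, ARNT2 had a day 7 estimate of 1.58, EPAS1 differed by -0.85 between day 7 and day 1, and ARNTL, the clock factor BMAL1, had -0.61 at day 1. The day 7 estimates of the 7 coregulators lay between -0.19 for MED1 and 0.62 for NCOA1, with NCOA3 at 0.30. MED1 had -0.43 at day 1, and NCOA3 differed by 0.50 between day 7 and day 1. None of these passed the test.

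The 6 tested genes of the tryptophan pathway had day 7 estimates from 0.09 ± 0.35 (SE) for AFMID to 2.13 ± 1.12 (SE) for IL4I1. Their median was 0.79, beside 0.03 over all genes tested, and 0 of 6 passed. The list was chosen with earlier results of these data known, so the median is a description. IL4I1, an amino acid oxidase, had a day 1 estimate of 2.61. In NCI-H2228 it stood at 2.17 TPM in attached cells, 64.9 TPM at day 1 and 2.33 TPM at day 7, and in NCI-H2009 at 0.397, 1.59 and 12.04 TPM. KMO, which hydroxylates kynurenine, had 1.13 at day 7, and AFMID, which makes kynurenine, had 0.87 at day 1. Of the 8 other reported targets tested, 0 passed. EREG, an epidermal growth factor receptor ligand, had -1.93 at day 1, and CDKN1B had 0.85 at day 1. NFE2L2 had -0.43 at day 1 and 0.58 between day 7 and day 1. Among the enzymes that remove or cleave ADP-ribose, MACROD1 had 0.76 at day 7, PARG 0.13 and ADPRH -0.23, and 0 of 4 passed. Between day 7 and day 1, PARG differed by 0.55 and ADPRH by -0.98.

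**Figure D4:**
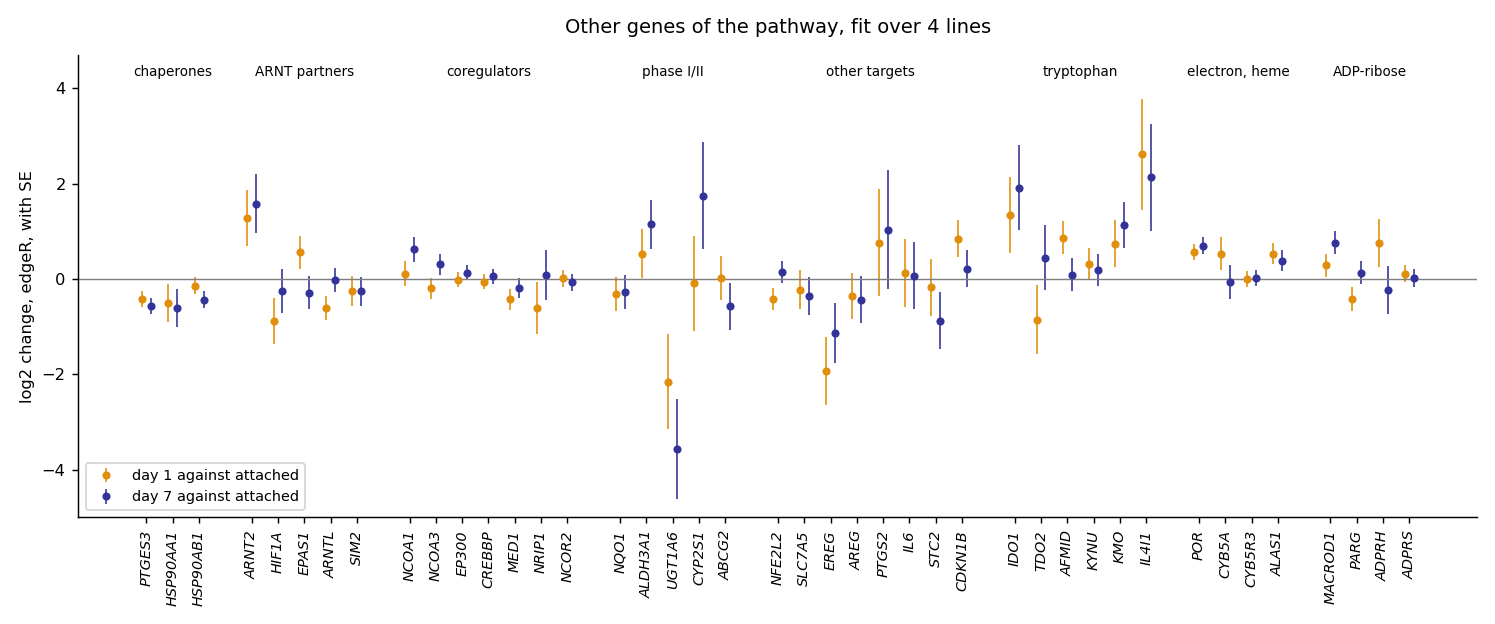
edgeR estimate with its SE for the other pathway genes tested, without 1 that is not reported here, grouped by role along the horizontal axis, at day 1 (orange) and day 7 (blue) against attached cells, on a log2 scale. The lowest point is UGT1A6 at day 7, at -3.56, and POR stands above 0 at both times with a narrow SE of 0.17.

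The protein-coding genes whose levels ran most like each member were sought among 11813 with at least 5 TPM in some library, by Pearson's r of log2(TPM + 1) over the 12 libraries. For CYP1A1 they were PACSIN2 (r = 0.95), GALNT12 and ANXA11, and for CYP1B1 they were ZBTB20 (0.97), REPIN1 and ZFAND5. For AHR they were NCBP2 (0.97), ALG3 and DECR2, and for ARNT they were ANKRD6 (0.94), CLDND1 and C14orf93. TIPARP had no close match, the nearest being CAPN2 at 0.72, with NOL12 and PRODH next. Once line means were subtracted, the nearest were MYBPHL, BCAP31 and TFAP2C for CYP1A1, VPS4B, STAU2 and MVB12B for CYP1B1, and ING3, D2HGDH and FAM214A for AHR. They were PRUNE1, MMP14 and DNPH1 for ARNT, and SYT12, MAP3K9 and CTTN for TIPARP. High values are common when so many genes are compared over 12 libraries.

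The libraries held between 31134420 and 41882024 estimated counts. Epithelial markers, summed over 6 genes, reached 3581 to 19740 TPM, and EPCAM was at least 204 TPM in every library. The sum of 5 leukocyte markers was 3.42 to 17.2 TPM in attached cells, 15.6 to 108 TPM at day 1 and 7.74 to 93.2 TPM at day 7, carried by CD14 and CD79A, while PTPRC did not exceed 0.834 TPM and CD3E 0.14 TPM. The sum of 5 fibroblast markers was 6.23 to 347 TPM in attached cells and 4.38 to 40.1 TPM at day 7, and that of 3 endothelial markers did not exceed 6.16 TPM. MKI67, a gene of dividing cells, was lower at day 1 and day 7 than in attached cells in all 4 lines, most in NCI-H2009 at day 1, with 73.5 TPM in attached cells and 4.06 TPM at day 1. The mitochondrial share of TPM was higher at day 1 than in attached cells in all 4 lines, from 0.526 to 1.56% in attached cells and from 1.28 to 3.39% at day 1. The part of these differences in the levels above was not tested. In such bulk RNA, fewer cells expressing a gene and less RNA per cell cannot be told apart.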

How the data were processed

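The authors deposited 1 table of gene expression for the 12 libraries. Its TPM columns each add up to 1000000. Its estimated counts, per the file headers given beside TPM, are not normalized, and 31.5% of the values above 0 are not whole numbers. Per the labels' protocols, an RNeasy kit gave the RNA, and the SMART-Seq v4 PLUS kit served for library preparation. The build is GRCh38, per the submitters' processing notes. Aligner, quantifier and strand setting: not given in the sources used here.

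Estimated counts were rounded and fitted with edgeR 4.0.16 in R 4.3.3 (TMM, filterByExpr by state, robust quasi-likelihood, state plus cell line, all 12 libraries, 17395 genes). SEs were taken from the estimate and its F statistic, so they restate the test. The shared cell line pairs the states: deviations from the state means correlated at 0.72 to 0.82 between libraries of 1 line and at -0.38 to -0.09 between lines. Line differences are log2 CPM with a prior count of 2. DESeq2 1.42.0 and limma 3.58.1 were alternatives, with other filters, scalings and left-out libraries. The fit was tested on simulated data. A count of 0 was taken to allow 3 counts; this limit covers counting error only, since PCR copies are not independent molecules.

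The members, the pathway list and the markers were chosen with earlier results of these data known. The text names the members, up to 3 pathway genes per role with the smallest p, pathway genes under 1 TPM throughout, the 3 genes most like each member, and overlapping genes. One pathway gene that this rule names is not reported here. POR, UGT1A6 and IL4I1 were given by library after their values were seen.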

Additional observations from a re-analysis of the deposited data

Results flagged for a closer look

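Each group of 4 lines was searched for a value far from the other 3 by Dixon's criterion. Independent, normally distributed values meet it in about 1 group in 20. Here TPM values are skewed, the groups share lines, and the members were chosen on these libraries. The number of groups found is therefore not compared with chance. Of 39 groups, 9 met the criterion. CYP1A1 in LC-2/ad at day 7 was one, at 840 TPM. CYP1A2 in LC-2/ad met it in all 3 states, at 0.114 TPM in attached cells, 0.711 TPM at day 1 and 1.47 TPM at day 7. The remaining 5 were values of NCI-H2009. They were ARNT at 30.6 TPM at day 1 and 42.5 TPM at day 7, AHRR at 2.28 TPM at day 1, the CYP1B1 log2 difference of -1.10 at day 1 against attached cells, and the AHR log2 difference of 1.97 between day 7 and day 1.

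Some lines differed by at least 1 log2 unit in opposite directions. This was searched only where a line had at least 10 counts in 1 of the libraries compared, a limit set after the values were seen. The opposition was not tested, since there was 1 library per line and state. For CYP1A1 at day 1 the extremes were 2.18 in LC-2/ad and -3.11 in NCI-H2228, and at day 7 they were 5.65 and -2.50 in the same lines. The NCI-H2228 values rest on 15, 0 and 1 counts. Between day 7 and day 1, CYP1A1 differed by 3.47 in LC-2/ad and -1.71 in HCC4006. For CYP1B1 the extremes were 1.07 in NCI-H2228 and -1.10 in NCI-H2009 at day 1, and 5.07 in NCI-H2009 and -1.63 in HCC4006 between the times.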

How the results depend on the processing

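The count of members called was 0 in all 3 comparisons under each of the 24 alternatives run, although DESeq2 gave AHRR no adjusted p at day 1 and day 7. The number of members tested ranged from 5 to 7. AHRR was not tested with the filter on TPM, nor at day 1 with only the 2 states compared. CYP1A2 was tested without a filter and in some fits with libraries left out. The count of pathway genes called was also 0 under each of the alternatives, except with DESeq2. It called 2 of 43 at day 1 (POR and IL4I1), beside 11.4% of the genes to which it gave an adjusted p. At day 7 it called 4 of 43 (POR, MACROD1, UGT1A6 and PTGES3), beside 7.56%. The cause of the difference from edgeR was not tested. Without the replicate block of cell line, 0 members and 0 pathway genes were called, and the calls over all genes went from 85 to 0 at day 1 and from 18 to 0 at day 7. Over all genes at day 1, DESeq2 called 1709, the fit without a filter 265, limma 225 with a pseudocount of 1 and 223 with 0.1, and DESeq2's size factors in edgeR 2. At day 7 these counts were 1162, 114, 13, 25 and 6, and a filter of at least 1 TPM in 4 libraries gave 29. With only the 2 states compared, edgeR called 0 at day 1 and 1 at day 7. Between the times edgeR called 0, with 1702 genes at an unadjusted p under 0.05, DESeq2 called 193, the fit without a filter 6 and limma on log2(TPM + 0.1) 1. Leaving out 1 line or 1 library gave 0 to 6 calls at day 1, 0 to 69 at day 7 and 0 between the times.

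Of 428 alternative values of the members' fitted differences, 423 moved by less than the SD between lines. This SD is wide where lines disagree, so the count is not a measure of stability. The move of CYP1A1 at day 7 from 2.64 to 0.93 without LC-2/ad lay within it. CYP1B1 at day 7 against day 1 went from 0.94 to -0.34 without NCI-H2009, and at day 1 to -0.04 with limma on log2(TPM + 0.1). CYP1A1 at day 1 went from 0.53 to -0.59 with DESeq2, -0.22 without the attached LC-2/ad library and -0.52 without the day 1 HCC4006 library. AHR at day 1 had the opposite sign under 11 of 24 alternatives, and at day 7 it ranged from -0.34 to 0.44. In HCC4006 the CYP1B1 difference at day 1 was 1.06 in log2 CPM and -0.39 in log2 TPM, from under 100 counts. With 1 library per line and state, and CYP1A2 and AHRR near the counting limit, the depth leaves their smaller differences undetectable.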
